A study of Mus musculus with 8 samples.

Results

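Hand needling in MPTP-treated mice was set against MPTP treatment without needling, with both needling sites pooled, in RNA of the cervical spinal cord. All 4 arrays of needled mice (2 needled at acupoints and 2 at the hips, the non-acupoint site) were compared with the 2 arrays of MPTP-treated mice that were not needled, so 6 of the 8 arrays of the series entered the comparison. The question is which genes differed in the same way whichever site the needles entered. It was asked of 16026 genes, each read from its brightest probe set by mean over the 8 arrays.

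The mice were male C57BL/6, 6 weeks old at the start. Control mice received saline, and the other 3 groups received MPTP into the peritoneum at 20 mg/kg every 24 h for 4 weeks. Needling began 2 h after the first MPTP injection and was repeated every 48 h for 14 sessions, with the needles turned by hand for 15 s. In the acupoint group the needles entered 3 mm at GB34 and 1 mm at LR3 on both sides, in mice held by hand, and in the non-acupoint group they entered 3 mm at both hips with the same handling. All 6 arrays of the comparison therefore come from MPTP-treated mice, and the needled groups differ from the other by the needles and by any handling that went with them. The labels name no restraint for the un-needled mice, so needling and restraint cannot be told apart. They also do not say whether an array holds 1 mouse or a pool of mice, so the p-values measure only the spread between these arrays, which may be technical. Where levels in the 2 control arrays are given, they place a gene and are not part of the difference itself. The control arrays do enter the shared estimate of spread behind every SE, interval and p-value. They also enter the filter and the choice of probe set.

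A needle that enters skin and muscle excites sensory nerve endings whose cell bodies lie in the dorsal root ganglia, and their axons enter the spinal cord, where dorsal horn neurons release peptides, GABA, glycine and glutamate and motor neurons send axons out. Neurons with damaged axons switch on a set of regeneration genes, among them Atf3, Jun, Sprr1a, Gap43 and Sox11. Handling and pain also raise circulating glucocorticoid, which enters cells, binds its receptor and drives target genes such as Fkbp5, Tsc22d3, Zbtb16 and Sgk1. MPTP is converted in glia to a toxin that dopaminergic neurons take up and that blocks the mitochondrial respiratory chain.

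Before any difference is read, the arrays themselves call for a description. Expression values are log2 values after RMA normalization, so a difference of 1 is a doubling. Across genes the 6 arrays correlated at Pearson's r of 0.985 to 0.996. The root mean square SD between the 2 replicates of a group was 0.116 in the MPTP group, 0.145 in the hip group and 0.222 in the acupoint group, so the acupoint pair was the least alike of the 3. The control pair, which also enters the shared spread, had 0.186. Acupoint replicate 1 held more muscle, peripheral nerve and meningeal RNA than the other needled arrays. The mean of 20 skeletal muscle genes was 6.74 there against 5.45 to 5.78 on the other 5 arrays of the comparison. The mean of 13 Schwann cell and peripheral myelin genes was 7.50 there, 6.92 on MPTP replicate 2 and 6.21 to 6.44 on the other 4, and the mean of 22 meningeal fibroblast genes was 7.41, 6.97 and 5.95 to 6.65 in the same order. Hip replicate 2 held brown fat genes: the mean of 13 adipose genes was 8.09 against 6.46 to 6.68, with Ucp1, the uncoupling protein of brown fat, at 7.88 against 3.95 to 4.35 on the other 5 arrays. Markers of central nervous tissue were near the same level throughout, with the mean of 16 pan-neuronal genes between 10.14 and 10.23 and the mean of 17 astrocyte genes between 10.60 and 10.70 on the 6 arrays.

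The labelled region was checked against the Hox genes, and lumbar ones were present on 7 of the 8 arrays. Hox genes of groups 4 to 8 mark the neck and upper trunk levels of the cord and groups 10 and 11 mark its lumbar levels. Hoxd10 was at 8.71 and 8.79 without needling, 9.07 and 8.79 after acupoint needling, 4.58 and 8.35 after hip needling and 8.77 and 7.64 in controls. Hip replicate 1 stood alone with a low level, and Hoxc10 repeated this, with 5.18 on that array against 7.06 to 7.83 on the other 7. Cervical genes such as Hoxa5, at 8.16 to 8.63, and Hoxc8, at 8.51 to 10.19, were present on all 8 arrays. In tissue pieces such as these, fewer cells of a type and less RNA per cell cannot be told apart.

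**Figure D1:**
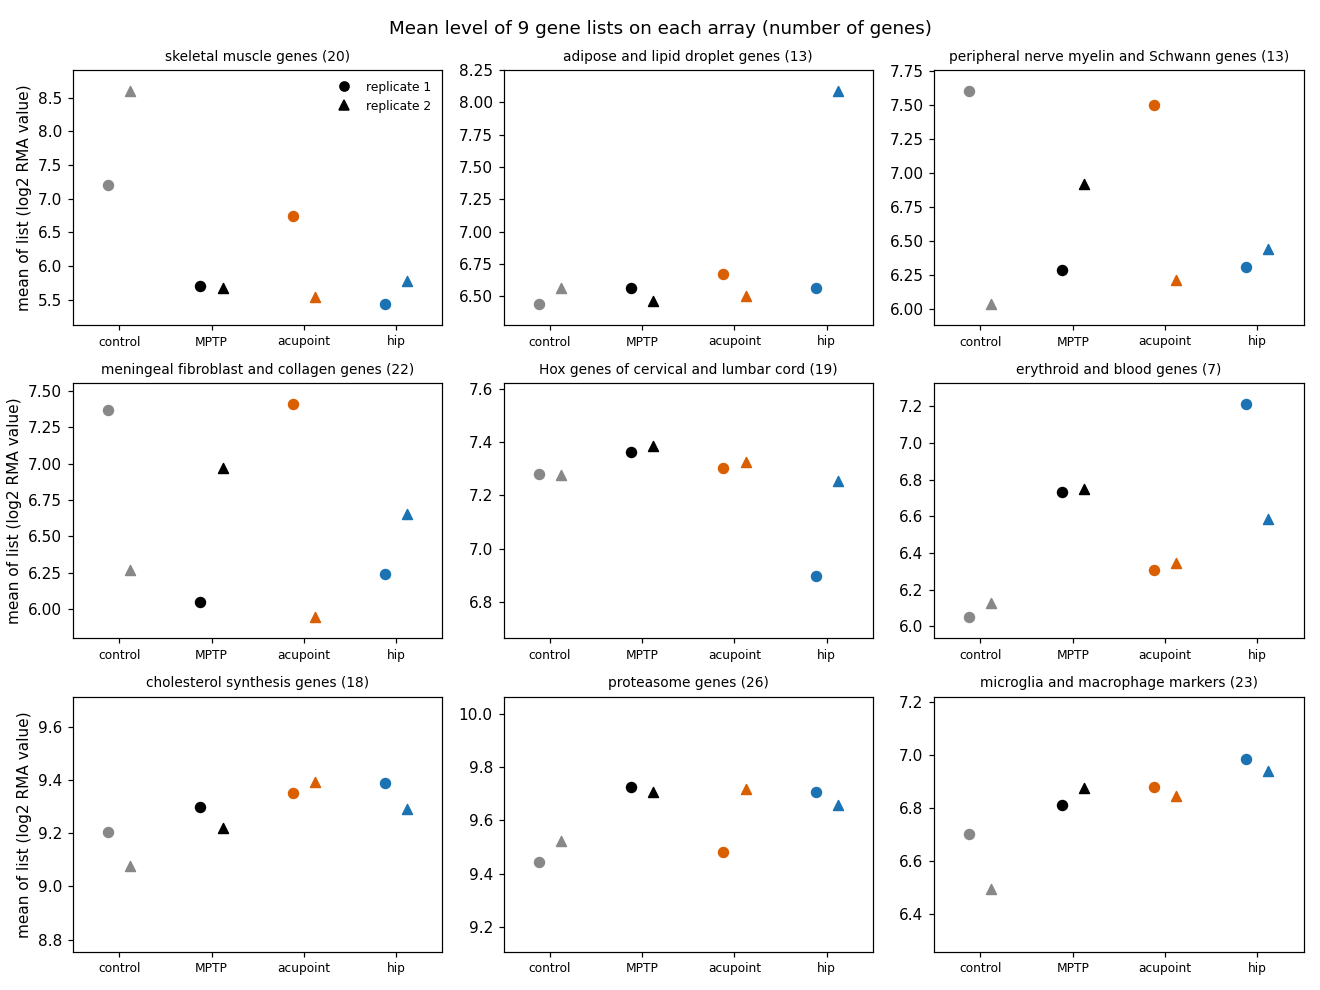
Mean log2 RMA value of 9 gene lists on each of the 8 arrays, by group, with circles for replicate 1 and triangles for replicate 2. Hip replicate 2 is alone at 8.09 in the adipose panel, hip replicate 1 is alone at 6.90 in the Hox panel, and acupoint replicate 1 is the highest treated array in the muscle, nerve and meningeal panels.

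The promoters of the leading gene in each direction are shown because both genes belong to programmes with a known binding motif. Sprr1a was the leading gene on the higher side. Of its 250 bases before the transcription start (RefSeq, GRCm38.p6, chr3:92485882-92486131, minus strand), capitals mark 2 AP-1 sites, the sequence TGANTCA on either strand, to which Jun and Atf3 proteins can bind. Sgk1 was the leading gene on the lower side. Of its 6 listed transcription starts, the fifth had in its 250 bases (chr10:21993640-21993889, plus strand) 1 glucocorticoid response element, AGAACA and TGTTCT with any 3 bases between them, also in capitals, and the windows of the other 5 starts held none.
Sprr1a: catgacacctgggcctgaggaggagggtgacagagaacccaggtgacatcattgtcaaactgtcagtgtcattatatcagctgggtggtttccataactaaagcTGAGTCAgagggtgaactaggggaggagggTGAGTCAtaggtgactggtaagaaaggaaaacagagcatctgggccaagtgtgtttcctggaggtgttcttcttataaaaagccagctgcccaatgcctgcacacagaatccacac
Sgk1: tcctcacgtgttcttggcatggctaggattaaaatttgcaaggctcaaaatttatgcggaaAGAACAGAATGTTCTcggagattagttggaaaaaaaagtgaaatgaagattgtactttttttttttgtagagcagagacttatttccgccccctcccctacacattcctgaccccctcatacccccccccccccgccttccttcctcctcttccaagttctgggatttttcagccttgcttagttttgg
The AP-1 sites begin 146 and 116 bases before the Sprr1a start, and the element in Sgk1 begins 189 bases before that start. Among 32851 promoter windows of this length, 6.75% held at least 1 AP-1 site, 0.338% held 2 or more and 3 windows (0.00913%) held the full glucocorticoid element. Of the 13 genes described singly below, 12 had a listed promoter. The windows of the other 10 held neither of these motifs, nor a sterol regulatory element (TCACNCCAC, in 1.05% of all windows) or a cAMP response element (TGACGTCA, in 1.55%). A match describes letters in a window and says nothing of whether a protein bound there in these mice.

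No gene passed the test for the difference shared by both sites. With limma and Benjamini-Hochberg adjustment over 16026 genes, 0 genes (0%) had an adjusted p under 0.05, and the smallest adjusted p was 1. At an unadjusted p under 0.05 there were 141 genes (0.88%), of which 78 (0.487%) were higher and 63 (0.393%) lower in needled mice, and at an unadjusted p under 0.01 there were 14 (0.0874%). The test of each site on its own against the same MPTP arrays also called 0 genes, with 201 genes (1.25%) at an unadjusted p under 0.05 for the acupoints and 273 (1.7%) for the hips. By chance alone a share of 0.05 of genes is expected at a p under 0.05, and 0.01 at a p under 0.01. Each of these needling shares was smaller than that. In the same fit MPTP against control called 2696 genes (16.8%).

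The differences were small. The median absolute log2 difference was 0.0568 against a median SE of 0.109, and the median log2 difference of all genes was -0.01, with 46.2% of genes above 0 and 53.8% below. Only 16 genes (0.0998%) differed by at least 1.5-fold and 4 (0.025%) by at least 2-fold. Of those 4, only Sprr1a separated the needled arrays from the MPTP arrays. Car3 (1.13) and Fabp4 (1.05), both genes of fat, were carried by hip replicate 2, where Fabp4 was at 9.05 against 4.25 to 4.97 on the other 5 arrays. Hoxd10 (-1.05) was carried by hip replicate 1, as given above.

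A direct reading of the arrays is whether all 4 needled values lay on one side of both MPTP values. They did for 1355 genes (8.46%), with all 4 above for 596 genes (3.72%) and all 4 below for 759 (4.74%). These shares are the background for each gene list below. The lists were chosen with earlier results of these data known, so a list's count set against this background is no test of the list. By chance alone, 1 of the 15 ways to split the arrays into 4 and 2 puts all 4 above, a share of 0.0667. The same holds for all 4 below. Both observed shares were smaller, so these counts are no surplus over chance. Both conditions, no overlap and an unadjusted p under 0.01, were met by 13 genes (0.0811%), 9 higher (0.0562%) and 4 lower (0.025%), and these are described in turn. None of the 13 passed the test: the limma adjusted p was 1 for each, and every fold below is a measured difference without that support. All 13 kept their direction in every alternative processing that was run on them, but for most alternatives the choice of genes without overlap fixed this. Leaving out arrays or changing the filter or variance model cannot reverse such a gene, and only the other scalings could have. How many genes met both conditions depended on single arrays, as given in the last section. Which genes met them depended on the processing. Of the 13, all met both under cyclic loess scaling and with array weights. Only 8 did with each array centred on its own median, and 8 with only the 6 MPTP-treated arrays fitted. Without the trend in the variance model 7 did, and with a term for the replicate number 6 did.

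**Figure D2:**
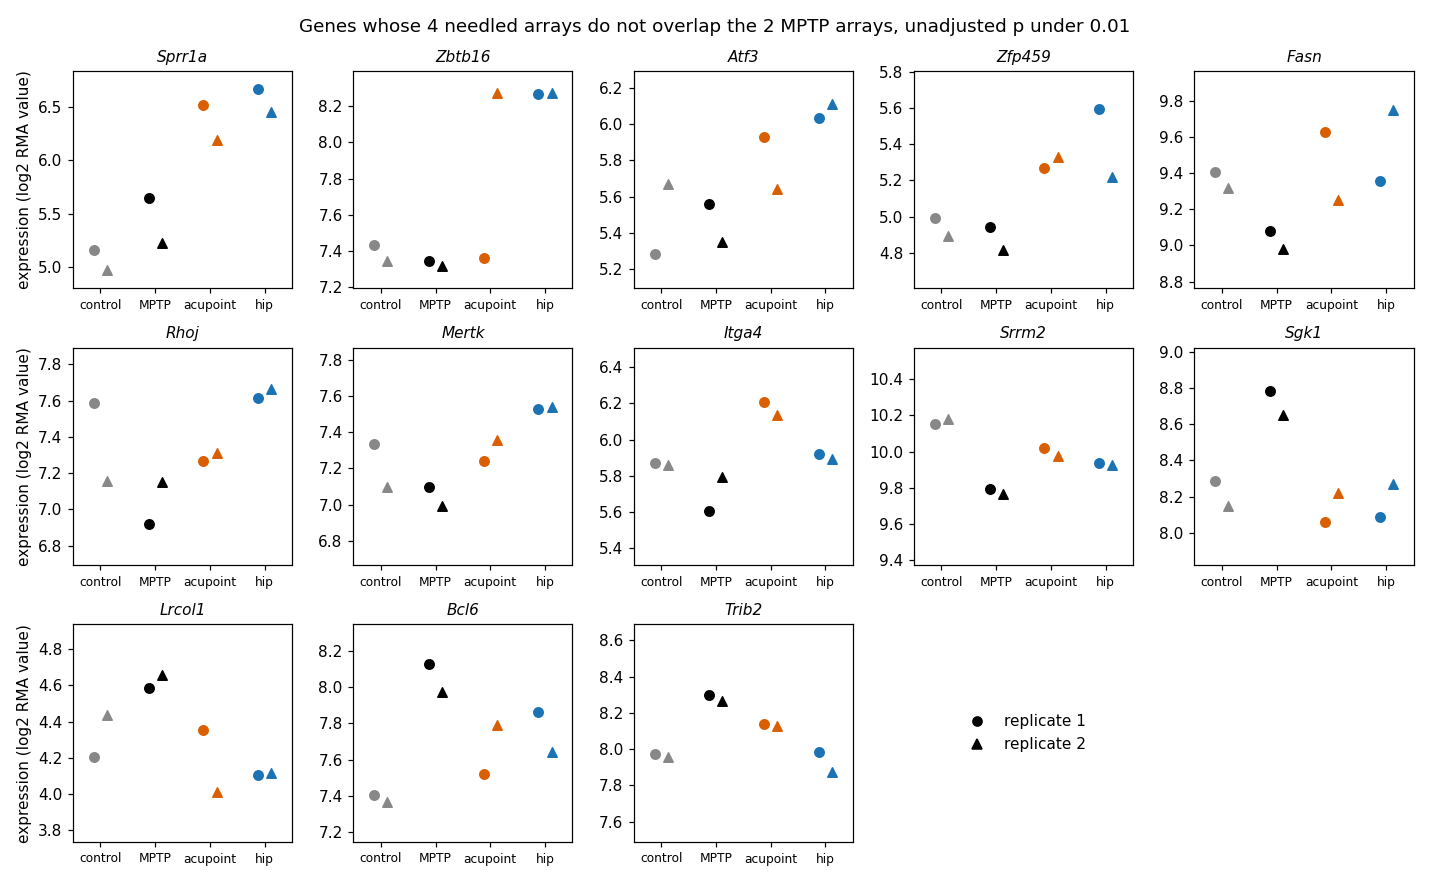
Log2 RMA value on each array for the 13 genes whose 4 needled arrays did not overlap the 2 MPTP arrays and whose unadjusted limma p was under 0.01, with control arrays in grey. Each panel has its own axis, and Sprr1a and Sgk1 have the smallest p-values, while Zbtb16 shows 3 needled arrays near 8.27 and 1 at 7.36.

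Sprr1a encodes a small proline-rich protein that injured neurons switch on and that favours axon outgrowth. Its log2 level was 5.65 and 5.22 on the MPTP arrays, 6.52 and 6.19 after acupoint needling and 6.67 and 6.46 after hip needling, with 5.16 and 4.97 in controls. All 4 needled arrays lay above all 4 arrays of mice that were not needled. The difference was 1.03 (SE 0.16, 95% confidence interval 0.67 to 1.38), or 2.04-fold, the smallest p of any gene (limma, unadjusted p = 8.679e-05, adjusted p = 1). With any 1 array left out it ranged from 0.81 to 1.24.

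Atf3, a stress-induced transcription factor and a standard marker of injured neurons, was at 5.56 and 5.35 without needling. It was at 5.93 and 5.64 after acupoint needling and at 6.03 and 6.11 after hip needling, a difference of 0.47 (SE 0.15). The control arrays, at 5.28 and 5.67, reached into the needled range, so its separation held against the MPTP arrays only. Jun, the AP-1 subunit, was at 8.01 and 8.09 without needling and at 8.40, 8.31, 8.23 and 8.16 with it, above both the MPTP and the control arrays (0.22, SE 0.08).

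Of 24 injury and regeneration genes tested, 5 were higher without overlap, against the 3.72% of all genes, and 0 were lower. Sprr1a and Atf3, counted among these, had already been chosen for having no overlap, so the count is no independent support. Beside Sprr1a and Atf3 these were Lifr (0.18), a receptor of the injury cytokine LIF, Sox11 (0.17), a regeneration transcription factor, and Ecel1 (0.09). The median of the list was 0.04 against -0.01 for all genes. Other members gave no such picture: Gap43, the growth cone protein, differed by 0.05 (SE 0.07), the neuropeptide gene Gal by -0.03 (SE 0.14) and the stress gene Hspb1 by -0.15 (SE 0.10). With each array centred on its own median 3 members were higher without overlap. Among markers of sensory ganglion neurons, Scn10a, a sodium channel of nociceptors, ranged from 4.19 to 4.81 over the 6 arrays and the mean of 8 such genes from 5.89 to 6.07, and their part in the result was not tested.

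Of 30 immediate early genes, which neurons switch on within minutes of strong activity, 2 were higher without overlap (Atf3 and Jun) and 1 lower. The lower one was Dusp1, the phosphatase that switches off MAP kinases, at 7.70 and 7.86 without needling and 7.47 to 7.65 with it (-0.24, SE 0.09). Fos, the AP-1 partner of Jun, was at 6.56 and 6.46 without needling, 6.67 and 6.66 after acupoint needling and 6.24 and 6.32 after hip needling. The 2 sites lay on opposite sides of the MPTP arrays, so the shared difference of -0.04 (SE 0.11) averages unlike values, and the site difference was 0.39 (SE 0.13, limma, unadjusted p = 0.01243, adjusted p = 0.936). The shared difference was -0.02 (SE 0.11) for Egr1, -0.01 (SE 0.08) for Arc and 0.04 (SE 0.12) for Npas4. The list median was -0.02, and 0.04 without acupoint replicate 2.

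Sgk1, the serum and glucocorticoid regulated kinase that adjusts ion channels and transporters, led the lower side. It was at 8.78 and 8.65 on the MPTP arrays, 8.06 and 8.22 after acupoint needling and 8.09 and 8.27 after hip needling. The needled arrays lay beside the control arrays, at 8.29 and 8.15, and well under the MPTP arrays. The difference was -0.56 (SE 0.09, 95% confidence interval -0.76 to -0.35), 1.47-fold lower (limma, unadjusted p = 1.4e-04, adjusted p = 1), and with any 1 array left out it ranged from -0.62 to -0.49. MPTP against control was 0.50 for this gene (limma adjusted p = 0.0136), but that value and the needling value share the MPTP arrays and are not independent.

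The other 2 kinases of the family did not follow it. Sgk3 was at 8.14 and 8.21 without needling, 7.37 and 8.06 after acupoint needling and 9.05 and 9.24 after hip needling, so the 2 sites lay on opposite sides of the MPTP arrays, and the controls were at 7.54 and 7.40. Its shared difference was 0.25 (SE 0.16), and the difference between sites was -1.43 (SE 0.19, limma adjusted p = 0.411). Sgk2 differed by 0.18 (SE 0.14).

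Zbtb16, a zinc finger repressor that glucocorticoid induces in many tissues, showed 2 levels. It was at 7.35 and 7.32 on the MPTP arrays, 7.43 and 7.35 in controls and 7.36 on acupoint replicate 1, and at 8.27 on acupoint replicate 2 and on both hip arrays. So 3 of the 4 needled arrays stood apart from every other array, while the fourth lay barely above the MPTP arrays. The difference was 0.71 (SE 0.20, 1.64-fold). Without acupoint replicate 1, the array with muscle, nerve and meningeal RNA, it was 0.94 with a limma adjusted p of 0.008621. That was the 1 gene called in any alternative for needling against MPTP, and the part of that array's tissue content in it was not tested.

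Other glucocorticoid targets were mixed. Of 21 tested, 3 were higher without overlap (Zbtb16, the hypoxia pathway inhibitor Hif3a at 0.35 and the kinase Map3k6 at 0.21) and 2 lower (Sgk1 and Dusp1), with a list median of 0.03. Fkbp5, the receptor's co-chaperone and a sensitive target, was at 8.02 and 7.96 without needling, 7.57 and 8.02 after acupoint needling and 8.35 and 8.66 after hip needling (0.16, SE 0.13), with controls at 7.20 and 7.10. Tsc22d3, which encodes the anti-inflammatory protein GILZ, was at 8.10 and 8.13 without needling and 8.29 to 8.35 on 3 needled arrays, but at 7.87 on acupoint replicate 1 (0.10, SE 0.12). Needled arrays were thus on both sides of the MPTP arrays for these 2 genes. Of 18 clock genes, 3 were higher and 2 lower without overlap, among them the repressor Nr1d1 (0.15, SE 0.06) and the repressor Cry1 (-0.19, SE 0.10), and the list median was close to 0.

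Fasn, which makes palmitate and supplies myelin lipid, was at 9.08 and 8.98 on the MPTP arrays. It was at 9.62 and 9.25 after acupoint needling, 9.36 and 9.75 after hip needling and 9.40 and 9.32 in controls, so the MPTP arrays were the lowest of the 8. Their place under the needled arrays was a condition of the choice, and the controls are set against the same MPTP arrays. The needling difference was 0.46 (SE 0.13, 1.38-fold). Fasn is also a gene of fat, which hip replicate 2 held. Without that array the difference was 0.37. Scd1, the fatty acid desaturase, was at 11.07 and 11.03 without needling and at 11.26, 11.18, 11.16 and 11.61 with it (0.25, SE 0.11), again with hip replicate 2 the highest.

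Cholesterol synthesis genes, which myelinating cells keep active, were mostly above 0, by smaller amounts. Of 18 tested, 16 were above 0 and 6 were higher without overlap, against 3.72% of all genes, with a median of 0.09 against -0.01. Those 6 were Mvd (0.23, SE 0.10), which makes isopentenyl diphosphate, Dhcr7 (0.17) and Hsd17b7 (0.16) of the later steps, Insig1 (0.14), the sterol sensor's anchor, and Sqle and Nsdhl (0.09 each). Hsd17b7 was at 8.88 and 8.80 without needling and at 8.99, 9.01, 8.99 and 8.99 with it. Hmgcs1, the enzyme just before the rate-setting reductase, differed by 0.07 (SE 0.10) and the sterol regulator Srebf2 by 0.10 (SE 0.09). The list mean was 9.30 and 9.22 on the MPTP arrays and 9.35, 9.39, 9.39 and 9.29 on the needled arrays, so hip replicate 2 fell inside the MPTP range. The median stayed between 0.06 and 0.13 in all alternatives, but with each array centred on its own median the members without overlap went from 6 to 2. Of 20 central myelin genes 15 were above 0, with a median of 0.03 (-0.02 without acupoint replicate 2) and 1 higher without overlap (the galactolipid enzyme Ugt8a, 0.13), and the myelin protein gene Mbp differed by 0.03 (SE 0.06).

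Mertk, a receptor by which microglia and astrocytes engulf dying cells, was at 7.10 and 6.995 without needling, 7.24 and 7.36 after acupoint needling and 7.53 and 7.54 after hip needling (0.37, SE 0.10). The needled arrays were above the MPTP arrays, and the hip arrays were also above the controls, at 7.33 and 7.10. Microglia and macrophage markers as a list had 19 of 23 members above 0, against 46.2% of all genes, and a median of 0.07. Without overlap 1 was higher (Itgam, 0.10) and 1 lower (Gpr34, -0.18), near the shares of all genes (3.72% and 4.74%). With each array centred on its own median 0 were higher and 0 lower without overlap. The list median against MPTP was 0.004 for the acupoints and 0.13 for the hips. Without MPTP replicate 1, and also without acupoint replicate 2, 15 members were above 0. C1qa and C1qc, which start the complement cascade, differed by 0.20 (SE 0.08) and 0.21 (SE 0.08). Their higher values came from the hip arrays, with C1qa at 8.76 and 8.66 there, 8.22 and 8.44 on the acupoint arrays and 8.33 and 8.32 without needling. Aif1 (0.09, SE 0.13) and Cx3cr1 (0.01, SE 0.08), 2 defining genes of microglia, overlapped. Astrocyte markers had a median close to 0, with Gfap at 0.14 (SE 0.10).

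Itga4, the integrin subunit by which leukocytes enter the nervous system, was at 5.61 and 5.80 without needling, 6.21 and 6.14 after acupoint needling and 5.92 and 5.89 after hip needling (0.34, SE 0.10), with controls at 5.87 and 5.86. Rhoj, a small GTPase of endothelial cells, was at 6.92 and 7.15 without needling, 7.26 and 7.31 after acupoint needling and 7.61 and 7.67 after hip needling (0.43, SE 0.13), with controls at 7.59 and 7.15. For Itga4 the acupoint arrays were the higher pair and for Rhoj the hip arrays. Of 24 integrins and adhesion genes 2 were higher without overlap (Itga4 and Itgam), and of 17 endothelial genes 1 was higher (the glucose transporter Slc2a1, 0.09) and 2 lower (the transporter Slco1a4, -0.17, and the junction protein Ocln, -0.07).

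The remaining genes of the 13 were of unlike kinds. Srrm2, a large splicing-body protein, had the smallest of these differences and the tightest arrays: 9.79 and 9.77 without needling, 10.02, 9.97, 9.94 and 9.93 with it (0.19, SE 0.06) and 10.15 and 10.18 in controls. Zfp459, a zinc finger protein gene, was at 4.94 and 4.82 without needling and at 5.27, 5.33, 5.59 and 5.22 with it (0.47, SE 0.13). The needled arrays were above both other groups for Zfp459 and between them for Srrm2. On the lower side, Bcl6, a transcriptional repressor best known from germinal centre B cells, was at 8.13 and 7.97 without needling, 7.52 and 7.79 after acupoint needling and 7.86 and 7.64 after hip needling (-0.35, SE 0.11), with controls at 7.40 and 7.36. Trib2, a pseudokinase, was at 8.30 and 8.27 without needling, 8.14 and 8.13 after acupoint needling and 7.99 and 7.88 after hip needling (-0.25, SE 0.07), with controls at 7.98 and 7.96. Both genes had the MPTP arrays highest of all 8. Their place above the needled arrays was a condition of the choice, and their place above the controls rests on the same MPTP arrays. Lrcol1, a colipase-like gene, was at 4.59 and 4.66 without needling and 4.35, 4.01, 4.11 and 4.12 with it (-0.48, SE 0.14), near the low end of the array's range, and the controls were at 4.20 and 4.44. Its needled mean, 4.15, was under the filter value of 4.30, and its MPTP mean was 4.62. It passed the filter through the MPTP arrays, where it was high, so its place among the 13 rests on them.

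Whether the shared differences were alike at the 2 sites was tested as acupoint minus hip needling, which does not use the MPTP arrays. It called 0 genes by limma at an adjusted p under 0.05, with 604 genes (3.77%) at an unadjusted p under 0.05 and a smallest adjusted p of 0.411. Among the 14 genes at an unadjusted p under 0.01 for needling, the smallest site p-values belonged to Xdh, Trib2 and Rhoj. Xdh, xanthine dehydrogenase, was at 5.60 and 5.95 without needling, 5.92 and 6.16 after acupoint needling and 6.32 and 6.68 after hip needling, so acupoint replicate 1 fell inside the MPTP range, as did the controls at 5.84 and 5.80. The site difference was -0.46 for Xdh (95% confidence interval -0.84 to -0.08), 0.20 for Trib2 (0.02 to 0.39) and -0.35 for Rhoj (-0.68 to -0.03), with a limma adjusted p of 0.936 for each. For Sprr1a it was -0.21 (-0.62 to 0.20) and for Sgk1 -0.04 (-0.27 to 0.20). These intervals are wide beside the shared differences, except for Sgk1 and Sprr1a, where the shared difference lies outside them in size.

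**Figure D3:**
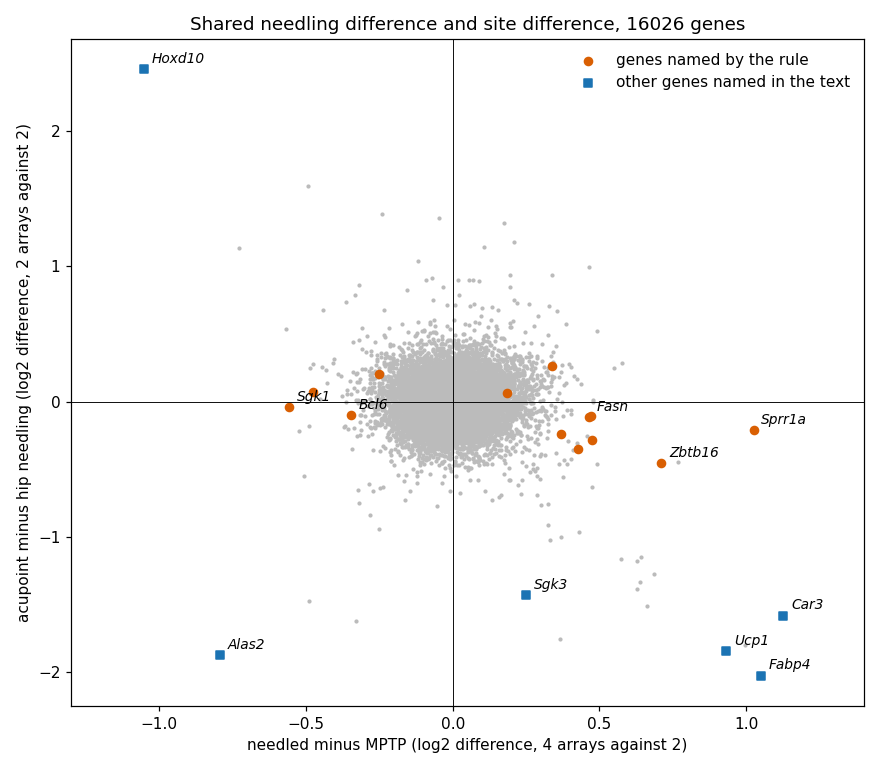
Each grey point is 1 of the 16026 genes, with the shared needling difference (log2, needled minus MPTP) on the x axis and the site difference (log2, acupoint minus hip) on the y axis. Sprr1a and Sgk1 lie far along x at site differences of -0.21 and -0.04, while Car3, Fabp4, Ucp1, Alas2 and Hoxd10 lie far from 0 on both axes.

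Among lists of spinal signalling, shared differences were close to those of all genes. Of 8 opioid peptide and receptor genes 0 separated the groups, with Penk at -0.01 (SE 0.07), Pdyn at -0.06 (SE 0.10) and the mu receptor Oprm1 at -0.05 (SE 0.10). Of 27 dorsal horn peptide and receptor genes 0 separated the groups, with the substance P gene Tac1 at 0.02 (SE 0.14) and the thyrotropin-releasing hormone gene Trh at -0.23 (SE 0.10). Of 10 monoamine enzymes and transporters 0 separated them, with tyrosine hydroxylase (Th) at -0.17 (SE 0.20) and Maob, the enzyme that activates MPTP, at 0.03 (SE 0.10).

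The receptor lists held a few members each. Of 20 monoamine receptors 2 were higher and 2 lower without overlap, including the serotonin receptor Htr1b (-0.14, SE 0.08). Of 23 GABA and glycine genes 1 was higher, the receptor subunit Gabrg3 (0.21, SE 0.09), and 1 lower, the synaptic anchor Gphn (-0.11, SE 0.06). Of 24 glutamate genes 2 were higher, the largest being the vesicular transporter Slc17a7, at 5.22 and 5.23 without needling and 5.75, 6.04, 5.89 and 5.41 with it (0.55, SE 0.25), with controls at 6.58 and 5.57. Of 19 motor neuron genes 0 were higher and 1 lower (Mmp9, -0.13), with Chat at -0.01 (SE 0.14). Of 27 potassium channel genes 0 separated the groups, and of 23 sodium and calcium channel genes 2 were higher and 1 lower.

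**Figure D4:**
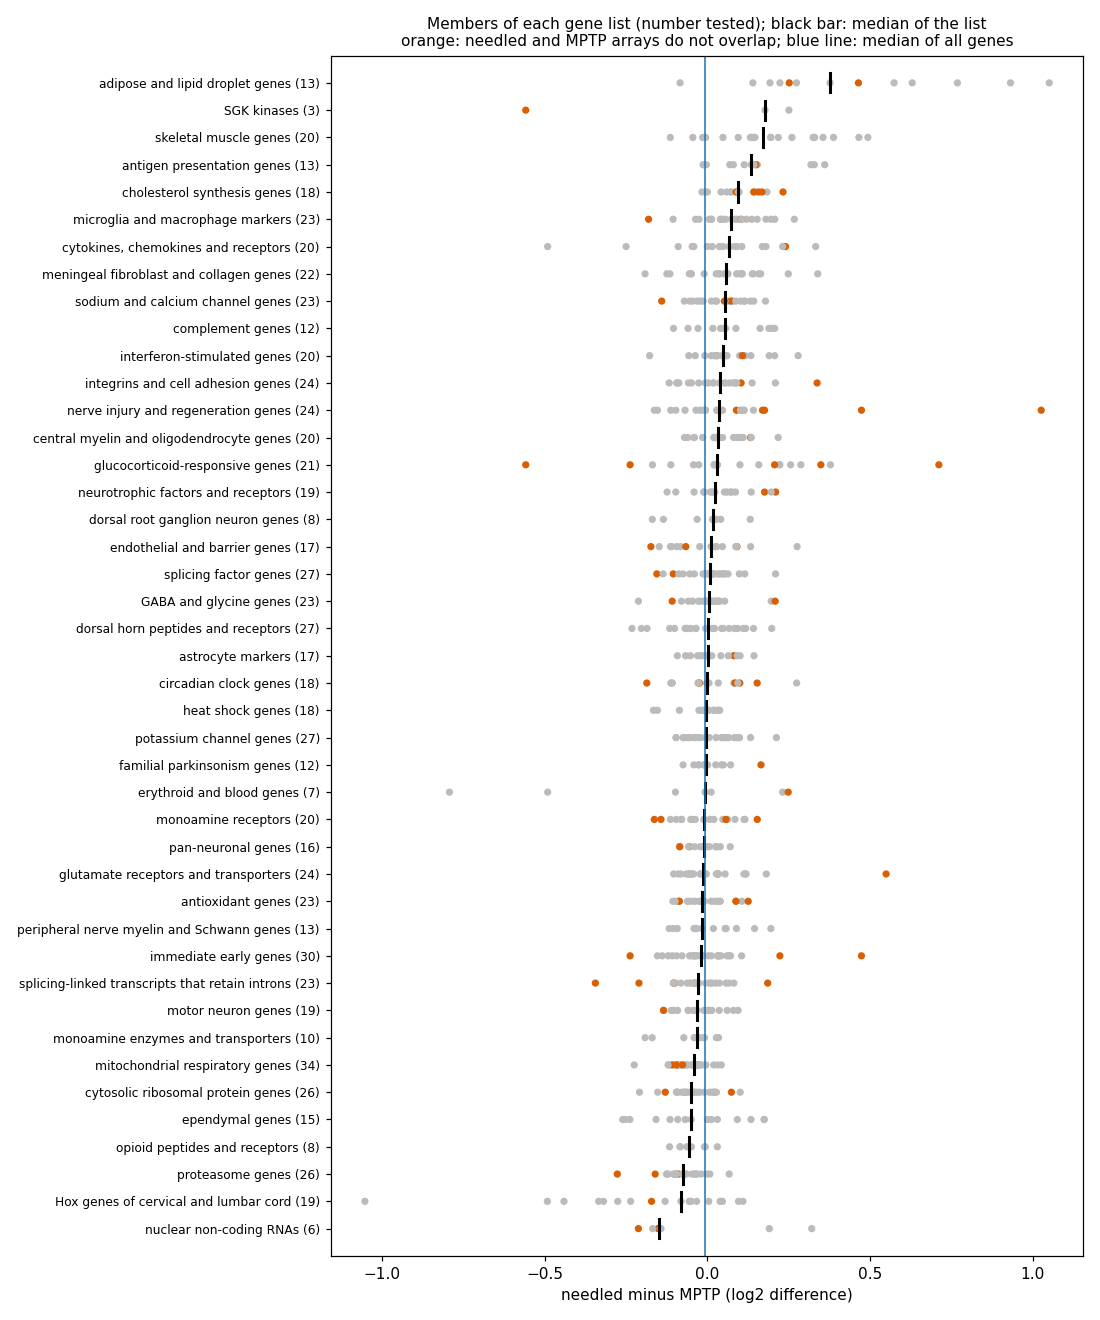
Log2 difference (needled minus MPTP) of every tested member of 43 gene lists, with the number tested in brackets, a black bar at the list median and orange points for members whose needled and MPTP arrays did not overlap. The blue line is at -0.01, the median of all genes; the adipose median is 0.38, that of the SGK kinases 0.18, that of the cholesterol synthesis genes 0.09 and that of the nuclear non-coding RNAs -0.15.

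Immune lists had medians slightly above 0 and few members that separated the groups. Antigen presentation genes had a median of 0.14 over 13 members, interferon-stimulated genes 0.05 over 20, cytokines and receptors 0.07 over 20 and complement genes 0.05 over 12, with 1, 1, 1 and 0 members higher without overlap. Without MPTP replicate 1 the antigen presentation median changed sign, to -0.06, and the interferon median was 0.0032, while without acupoint replicate 1 the cytokine median was 0.0058. Of 18 heat shock genes 0 separated the groups. Antioxidant genes had 2 higher, catalase (Cat, 0.13, SE 0.06) and Sod2 (0.09, SE 0.06), and 1 lower, Txn1 (-0.09, SE 0.07), of 23. Of 12 familial parkinsonism genes 1 was higher, the ubiquitin ligase subunit Fbxo7 (0.16, SE 0.07).

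Proteasome and respiratory chain genes leaned lower, and this followed 1 array. Of 26 proteasome genes 24 were below 0 and 5 were lower without overlap, against 4.74% of all genes, led by the core subunit Psmb3, at 9.98 and 9.82 without needling and 9.60, 9.73, 9.67 and 9.49 with it (-0.28, SE 0.09). The list mean was 9.73 and 9.71 on the MPTP arrays, 9.48 on acupoint replicate 1 and 9.66 to 9.72 on the other needled arrays. Without acupoint replicate 1 the median went from -0.07 to -0.01 and 14 of 26 members were below 0. Of 34 respiratory chain genes, whose complexes MPTP's product blocks, 31 were below 0 and 4 lower without overlap, with a median of -0.04. Of all genes 53.8% were below 0 and 4.74% lower without overlap. Without acupoint replicate 1 the respiratory chain median was -0.01 and 21 were below 0. Ribosomal protein genes did likewise, with 19 of 26 below 0, and 13 without that array. With each array centred on its own median, the members lower without overlap went from 5 to 2 for the proteasome. For the respiratory chain they went from 4 to 1.

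Nuclear RNA lists were small. Of 6 nuclear non-coding RNAs, the imprinted Meg3 (-0.15, SE 0.07) and Rian (-0.21, SE 0.10) were lower without overlap, while Malat1, at 10.11 and 10.49 without needling and 10.65, 10.49, 10.59 and 10.77 with it, differed by 0.32 (SE 0.11) and overlapped. Of 23 transcripts of splicing genes that retain introns, 1 was higher (Srrm2) and 4 lower without overlap, against 3.72% and 4.74% of all genes. The lower ones included the splicing kinases Clk1 (-0.34, SE 0.14) and Clk4 (-0.21, SE 0.09). With each array centred on its own median 0 were lower without overlap. The list median was -0.03, and 0.04 without acupoint replicate 1. Clk1 was at 9.13 and 9.09 without needling and at 8.33, 8.84, 9.07 and 8.80 with it, lowest on acupoint replicate 1.

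Lists that mark other tissues followed single arrays. The adipose median was 0.38, and 0.11 without hip replicate 2. The skeletal muscle median was 0.17, and -0.10 without acupoint replicate 1. Alas2, the haem enzyme of red cell precursors, was at 7.87 and 7.81 without needling, 5.59 and 6.64 after acupoint needling, 8.57 and 7.40 after hip needling and 5.24 and 5.54 in controls (-0.79, SE 0.33), so the 2 sites did not share a direction. The mean of the 19 Hox genes was 6.90 on hip replicate 1 against 7.26 to 7.39 on the other 5 arrays of the comparison. What part these tissue differences have in the differences of the named genes was not tested.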

How the data were processed

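The deposited table of the authors holds log2 expression values, 1 for each probe set on each array. Per the submitters' processing notes these come from Affymetrix Expression Console with RMA. RMA corrects background, equalizes the distributions of probe values between arrays and summarises probes on a log scale. The deposited probe set values were not equal in distribution: array medians ran from 5.59 on hip replicate 1 to 5.80 on control replicate 1. Versions are not given in the sources used here. Per the labels, 300 ng of total RNA was labelled per array. Of 35557 probe sets, the platform annotation gave 1 symbol for 21789, several for 1621 and none for 12147; 21698 of the first matched a RefSeq table (GRCm38.p6) by Entrez ID, with 0 renamed. Probe sets with 1 symbol and a mean above the 30th percentile (4.30) were kept, 1 per gene, which left 16026 of 19938 genes. RMA compresses dim probe sets, so their differences are understated.

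Groups came from the labels. The model (limma 3.58.1, R 4.3.3) had 1 mean for each of the 4 groups over the 8 arrays (lmFit, then eBayes with trend, 4 residual and 5.34 prior degrees of freedom). The contrast was the mean of the 2 needled groups minus the MPTP group, two-sided, with Benjamini-Hochberg adjustment. With only 2 arrays per group, their number limits the precision. The script was tested on simulated data. Among genes without overlap, up to 12 per direction were named, those called first and then those at an unadjusted p under 0.01; of the 42 gene lists, key members, the 3 smallest p and members without overlap were named, the last, and a few genes outside this rule, by a choice made after their values were seen. The members and lists were chosen with earlier results of these data known, and a list of 10 sensory ganglion genes was added after the data were seen. Alternatives were other scalings, filters, variance models, designs and probe set choices, a replicate block and leaving out arrays. The replicate numbers did not pair the arrays: correlations of the replicate differences between groups ran from -0.33 to 0.17. Promoter windows came from RefSeq (GRCm38.p6). Probe sets with several symbols or none were not named; 7309 of them passed the filter and 0 were called. No batch was tested, since neither scanner files nor scan dates were used here. Figures were drawn with matplotlib 3.10.9.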

Additional observations from a re-analysis of the deposited data

Results flagged for a closer look

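Among the 4 needled arrays, 1 array stood far from the other 3 for 8 of the 87 genes named and for the mean of 5 of the 43 gene lists, by Dixon's test at its 95% level, which chance alone meets in about 1 in 20 groups of arrays. On acupoint replicate 1, Zbtb16 was at 7.36 against 8.27 on the other 3, Tsc22d3 at 7.87 against 8.29 to 8.35 and the microglial receptor gene Gpr34 at 4.55 against 4.93 to 4.99. On the same array the mean of the immediate early genes was 6.39 against 6.20 to 6.21, that of the heat shock genes 9.68 against 9.78 to 9.79 and that of the integrins and adhesion genes 6.95 against 6.77 to 6.79. On acupoint replicate 2, Hsd17b7 was at 9.01 against 8.99, a gap that is small in absolute size. On hip replicate 1, Hoxd10 was at 4.58 against 8.35 to 9.07, the mean of the Hox genes was 6.90 against 7.26 to 7.33, and Ugt8a was at 11.59 against 11.57 to 11.58. On hip replicate 2, Fabp4 was at 9.05 against 4.30 to 4.91, Ucp1 at 7.88 against 3.95 to 4.35 and the mean of the adipose genes 8.09 against 6.51 to 6.68.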

How the results depend on the processing

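For the difference shared by both sites, 0 genes were called in every alternative except that without acupoint replicate 1, which called 1 (Zbtb16). Leaving out 1 array at a time gave 0 to 1 called genes for needling against MPTP, 0 to 3 for the acupoints and 0 to 13 for the hips against MPTP, and 0 to 622 for acupoint against hip needling, the last without acupoint replicate 2, where the lone array is assumed to vary like the other groups. Genes without overlap ranged from 1355 to 4153, since fewer arrays overlap less, and those also at an unadjusted p under 0.01 from 4 (without MPTP replicate 1) to 114 (without acupoint replicate 2). That last count was 27 with no filter, 20 with eBayes without trend, 35 with array weights, which also called 1 gene for the hips, and 7 with the replicate block, under which 0 genes were called for needling against MPTP. With acupoint replicate 1 and hip replicate 1 left out together, 14 genes were called for the hips and 11 between sites, 5202 genes had no overlap and 55 of these had an unadjusted p under 0.01. With acupoint replicate 1 and hip replicate 2 left out together, chosen after seeing the data, the counts were 1, 1, 6674 and 68. The causes of these changes were not tested. All 13 genes without overlap at an unadjusted p under 0.01 kept their direction in 22 or 23 alternatives each. Except under other scalings, the choice of genes without overlap fixed this in advance, so it is no independent support. The share of genes above 0 was 46.2%, and 41.7% after centring every array at its median. Genes without overlap numbered 1041 after that centring and 1595 after a further quantile normalization. The median SE of 0.109 exceeded the median absolute difference of 0.0568.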
